A study of Mus musculus with 12 samples.

Results

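The respiratory chain genes of the mouse ankle joint were the 81 genes whose array feature carried a single symbol starting with Nduf (a, b, c, s or v and a digit), Sdh (a to d), Uqcr, Cox4 to Cox8 or Atp5. They were chosen by name, from 19938 genes with a single symbol. By complex they were 33 genes of complex I, 4 of complex II, 8 of complex III, 19 of complex IV and 17 of complex V. Ndufa4 and its paralog Ndufa4l2 were put with complex IV, where the Ndufa4 protein is now placed. Of the 81 genes, 80 passed the signal limit and were tested. The exception was Cox7b2, a testis isoform of complex IV, whose mean log2 signal of 4.45 lay under the limit of 5.3.

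Total RNA of 1 mouse per array was hybridised to 12 Affymetrix Mouse Gene 1.0 ST arrays, 3 mice in each of 4 groups. All were described as male mice on the C57BL/6 strain, and each array measured a whole pulverised ankle joint, with its bone, marrow, synovium and the soft tissue around it. Mmp8-/- mice lack matrix metalloproteinase 8, a collagenase of neutrophils, in every cell from conception, and Mmp8+/+ mice carry the intact gene. Arthritic mice of either genotype were injected intraperitoneally with 150 µl of K/BxN serum on day 0 and on day 2 and were killed on day 7, whereas control mice had no arthritis. This serum carries antibodies that start a joint inflammation within days. The values are log2 signals after robust multi-array averaging (RMA), so that a difference of 1 is a doubling, and precision is limited by having 3 mice in a group. Signals of different genes come from different probes, so only changes of a gene, not levels of 1 gene against another, are compared.

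The arrays were checked against their labels first. Mmp8 read 10.21 to 11.16 on the 6 Mmp8+/+ arrays and 4.64 to 5.54 on 5 of the Mmp8-/- arrays, but 10.65 on the array labelled Mmp8-/- control 2. Xist, the RNA that coats the silenced X chromosome in females, had signals of 10.42 on the array labelled Mmp8+/+ control 1 and 10.92 on that labelled Mmp8-/- control 1, against 4.66 to 5.41 on the other 10. Counts of calls, and the calls that changed, are therefore also given without these control arrays, where the share of all features called by limma was smaller as well. With all 3 arrays left out, only Mmp8-/- control mouse 3 remained in its group, so that setting is given by the size of changes. Array medians lay between 6.74 and 6.82.

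The respiratory chain passes electrons from NADH and succinate to oxygen and uses the energy to pump protons across the inner mitochondrial membrane. Complex I oxidises NADH, complex II oxidises succinate, complex III hands electrons from ubiquinol to cytochrome c, and complex IV, cytochrome c oxidase, reduces oxygen, while complex V, the ATP synthase, uses the proton gradient to make ATP. Most subunits are encoded in the nucleus and are made in nearly every cell. Heart and skeletal muscle are rich in the whole chain, and in complex IV they replace some widely expressed subunits with their own isoforms, Cox6a2, Cox7a1 and Cox8b, of which Cox7a1 and Cox8b are also made by brown fat.

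The promoters of the isoform pairs with the largest changes are shown because partners of the same subunit differ in them. They are the 250 bases before the transcription start, from RefSeq on GRCm38.p6, written 5′ to 3′ on the strand of the gene, and capitals mark CG dinucleotides. Cox7a1 lies at chr7:30183921-30184170 on the plus strand, and on the minus strand lie Cox7a2 at chr9:79759854-79760103, Cox8b at chr7:140900447-140900696 and Cox8a at chr19:7217617-7217866.
Cox7a1: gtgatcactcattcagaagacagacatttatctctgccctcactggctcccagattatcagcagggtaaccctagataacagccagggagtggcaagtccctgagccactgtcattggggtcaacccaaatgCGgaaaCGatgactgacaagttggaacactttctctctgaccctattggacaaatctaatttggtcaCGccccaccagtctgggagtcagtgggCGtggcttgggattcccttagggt
Cox7a2: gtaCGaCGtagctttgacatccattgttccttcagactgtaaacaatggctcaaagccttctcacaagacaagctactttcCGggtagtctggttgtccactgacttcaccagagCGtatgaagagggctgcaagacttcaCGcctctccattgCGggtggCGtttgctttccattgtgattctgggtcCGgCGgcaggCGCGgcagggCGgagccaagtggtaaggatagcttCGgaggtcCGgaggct
Cox8b: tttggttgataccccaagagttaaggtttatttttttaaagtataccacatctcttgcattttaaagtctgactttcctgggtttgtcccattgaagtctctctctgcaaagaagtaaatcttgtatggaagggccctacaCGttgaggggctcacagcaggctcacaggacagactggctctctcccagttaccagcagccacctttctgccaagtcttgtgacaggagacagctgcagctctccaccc
Cox8a: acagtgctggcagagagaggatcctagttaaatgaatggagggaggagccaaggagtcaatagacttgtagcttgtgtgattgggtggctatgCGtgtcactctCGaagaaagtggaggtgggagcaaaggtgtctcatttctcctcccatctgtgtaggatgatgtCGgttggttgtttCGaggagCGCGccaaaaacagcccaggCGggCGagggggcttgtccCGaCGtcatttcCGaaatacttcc
Cox8b held 1 CG dinucleotide and Cox7a1 held 4, whereas their widely expressed partners Cox8a and Cox7a2 held 11 and 14. The median was 14 over the 71 promoters of the 66 respiratory chain genes with an entry, up to a highest value of 35, and 6 over all 32851 promoters of the table. No more CG than in Cox8b was found in 18.8% of all promoters, and no more than in Cox7a1 in 44.4%. Motifs were searched on both strands of the same 250 bases and are given as shares of the 66 genes, counting a gene where any of its promoters matched, and of all promoters. The ETS motif CCGGAAG was found in 18.2% of the genes against 6.91% of all promoters, and the ERR motif AAGGTCA in 6.06% against 4.08%. The SP1 motif GGGCGG was found in 36.4% against 32.7%, the E-box CANNTG in 60.6% against 66.2%, and the TATA box TATAAA in 10.6% against 12.4%. Each of the 4 promoters shown held 1 E-box match and none of the ETS, ERR and TATA letters, and Cox7a2 alone among them held the SP1 letters. A match describes letters and not a bound factor.

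In arthritic joints of Mmp8+/+ mice 10 of the 80 respiratory chain genes changed, of which 2 rose and 8 fell. In Mmp8-/- mice 8 changed, of which 3 rose and 5 fell (limma, Benjamini-Hochberg adjusted p under 0.05 over 17450 features). These were 12.5% and 10% of the genes, beside 19.6% of all features tested in Mmp8+/+ (7.47% rose, 12.1% fell) and 22.6% in Mmp8-/- mice (8.3% rose, 14.3% fell). Both shares lay below those of all features, and the difference was not tested. The genes lower in arthritis in both genotypes were Cox7a1 and Cox8b of complex IV and Ndufs4, Ndufs7 and Ndufv3 of complex I. Altogether 13 genes changed in 1 genotype or both and 67 in neither. At an adjusted p under 0.01, 4 genes passed in Mmp8+/+ mice, against 9.13% of all features, and 1 in Mmp8-/- mice, against 8.71%. The median log2 difference of the 80 genes was -0.15 in Mmp8+/+ and 0.06 in Mmp8-/- mice, against 0.01 and -0.02 for all features. At an unadjusted p under 0.05 the counts were 19 genes (23.8%, against 35% of all features) in Mmp8+/+ and 16 (20%, against 38.5%) in Mmp8-/- mice by limma. Control and arthritic mice did not overlap for 21 genes lower and 7 higher in Mmp8+/+ joints, where 22.4% and 18.6% of all features were separated in these directions, and for 8 lower and 9 higher in Mmp8-/- joints, beside 21.5% and 18.4%.

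The split between higher and lower depended on the scaling of the arrays. After quantile normalisation over the tested features 3 genes rose and 5 fell in Mmp8+/+ mice, where 9.05% of all features rose and 10.2% fell, and 8 rose and 2 fell in Mmp8-/- mice, where 10.9% rose and 10.9% fell. With array means subtracted, 3 rose and 7 fell in the former and 5 rose and 4 fell in the latter, beside 9.36% and 11% and 11.9% and 12.2% of all features. Without the arrays with Xist signal 3 genes passed in Mmp8+/+ mice, namely Cox7a1, Cox8b and Ndufv3, and 1 in Mmp8-/- mice, Cox7a1, while the share of all features fell to 11% and 9.83%. Without the array labelled Mmp8-/- control 2 the counts were 9 and 4, and the Mmp8-/- calls of Ndufs4, Ndufs7, Ndufv3, Ndufa1 and Atp5o were lost, as was the Mmp8+/+ call of Ndufa4, whereas Cox8c gained one in Mmp8-/- mice (0.77, limma adjusted p = 0.0378). The shares of all features were then 18.1% and 13.7%. Without all 3 arrays, where only Mmp8-/- control mouse 3 was left in its group, the median difference of the 80 genes was -0.12 in Mmp8+/+ and -0.08 in Mmp8-/- mice.

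**Figure D1:**
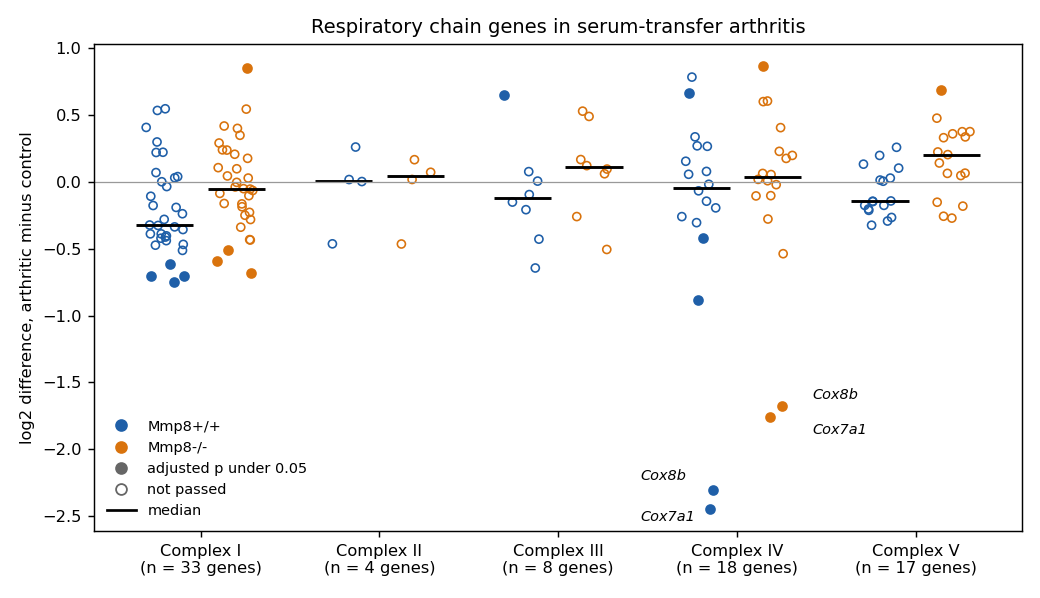
Log2 difference of arthritic minus control mice for the 80 tested respiratory chain genes, 1 point per gene, by complex, with Mmp8+/+ in blue and Mmp8-/- in orange; filled points have a limma adjusted p under 0.05 and bars are medians. Cox7a1 and Cox8b lie at -2.45 and -2.30 in Mmp8+/+ and at -1.76 and -1.67 in Mmp8-/- mice, while the other genes stay between -0.88 and 0.87.

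Complex IV held the largest falls, in the muscle isoforms. Cox7a1, the muscle form of subunit VIIa, had log2 signals of 9.56, 8.28 and 8.99 in Mmp8+/+ control mice and of 6.58, 6.24 and 6.66 in arthritic ones. The same gene in Mmp8-/- mice read 8.90, 8.66 and 8.32 in controls and 6.52, 6.17 and 7.92 in arthritis. Every arthritic mouse was below every control mouse, and arthritic Mmp8-/- mouse 3 was the highest of the arthritic mice. Cox7a1 fell by 2.45 ± 0.38 (SE, n = 3 against 3) on the log2 scale in Mmp8+/+ mice, which is 5.46-fold (limma adjusted p = 0.000437), and fell by 1.76 ± 0.38 in Mmp8-/- mice, which is 3.38-fold (limma adjusted p = 0.00521).

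Cox8b, the muscle form of subunit VIII, read 9.89, 8.55 and 9.50 in Mmp8+/+ controls and 6.75, 6.64 and 7.64 in arthritic Mmp8+/+ mice. The Mmp8-/- controls read 9.15, 8.44 and 8.54 and the arthritic Mmp8-/- mice 6.87, 6.09 and 8.14. The groups again did not overlap, and mouse 3 of either arthritic group kept the highest signal. The gene fell by 2.30 ± 0.44 (SE) in Mmp8+/+ mice (4.93-fold, limma adjusted p = 0.00233) and fell by 1.67 ± 0.44 in Mmp8-/- mice (3.19-fold, limma adjusted p = 0.0163). Without the arrays with Xist signal the fall in Mmp8-/- mice no longer passed (-1.45, limma adjusted p = 0.072), and the others of Cox7a1 and Cox8b did.

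Cox6a2, the muscle form of subunit VIa, moved less. It read 8.87, 8.04 and 8.39 in Mmp8+/+ controls and 7.09, 7.65 and 7.92 in arthritic Mmp8+/+ mice, and fell by 0.88 ± 0.27 (SE), or 1.84-fold (limma adjusted p = 0.0346). In Mmp8-/- mice it read 8.00, 8.31 and 7.89 in controls and 7.73, 6.96 and 7.89 in arthritis, a difference of -0.54 ± 0.27 that did not pass (limma adjusted p = 0.16). The call in Mmp8+/+ mice was lost without the arrays with Xist signal (-0.66, limma adjusted p = 0.178).

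The widely expressed partners did not follow. Cox7a2 differed by 0.27 ± 0.26 (SE) in Mmp8+/+ and by 0.23 ± 0.26 in Mmp8-/- mice, and Cox8a by 0.08 ± 0.19 and 0.18 ± 0.19, with arthritic and control mice overlapping in both genotypes. Cox6a1 read 9.13, 9.22 and 9.44 in Mmp8+/+ controls and 10.21, 9.60 and 10.33 in arthritis. Its difference of 0.78 ± 0.27 in Mmp8+/+ mice did not pass (limma adjusted p = 0.0579) but did under 6 of 26 alternatives, with adjusted p from 0.0118 to 0.189 over all of them. The difference of 0.60 ± 0.27 in Mmp8-/- mice did not pass (0.122). None of these values shows that a partner stayed the same.

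**Figure D2:**
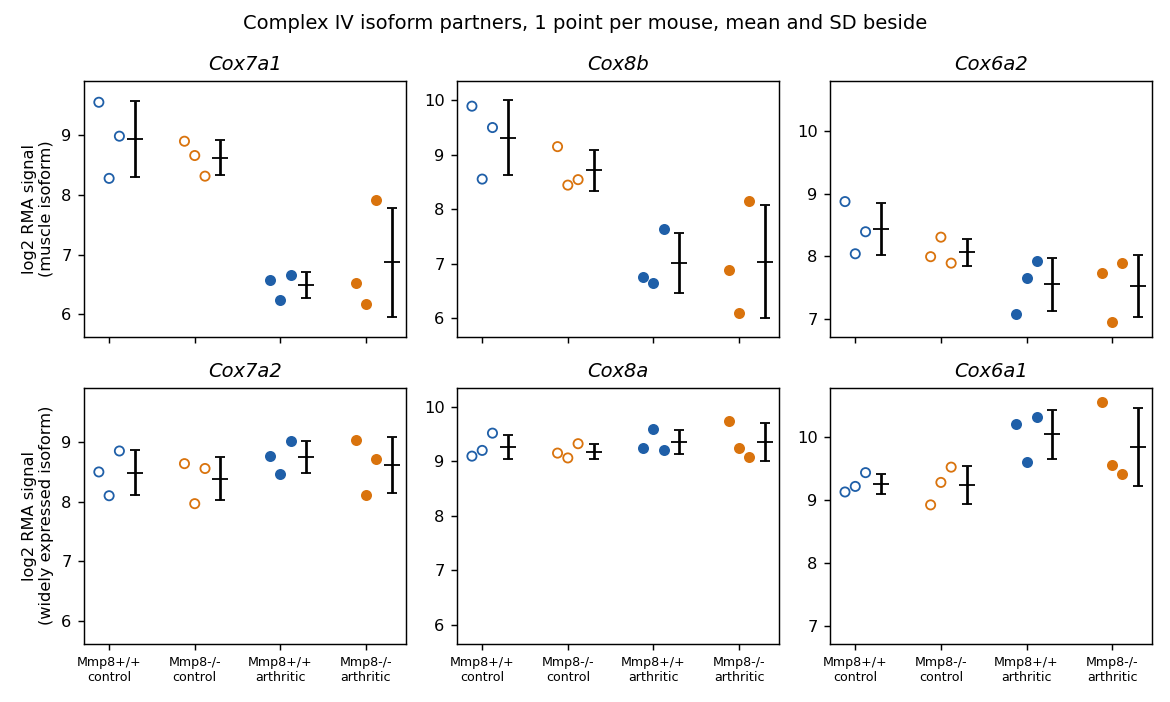
Log2 RMA signal of 3 muscle isoforms of complex IV (top) and their widely expressed partners (bottom) in each of the 12 mice, with group mean and SD beside the points; open points are control and filled points arthritic mice. Cox7a1 and Cox8b separate controls from arthritic mice with no overlap in both genotypes, whereas for Cox7a2 and Cox8a the groups overlap; heights of different genes are not comparable.

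The change of each isoform was set against that of its partner in the same mouse, as the log2 ratio of the pair, with an exact permutation test of arthritic and control labels within each genotype that was chosen after the values were seen. Over 6 pairs and 12 mice there are 400 permutations, and the smallest two-sided p they can give is 0.005. The value tested was the mean of the changes in both genotypes, so a p does not show a change in each of them. The ratio of Cox7a1 to Cox7a2 changed by -2.71 in Mmp8+/+ and -1.99 in Mmp8-/- mice, and that of Cox8b to Cox8a by -2.38 and -1.85 (exact permutation p = 0.005 for each pair, adjusted p = 0.015 over the 6 pairs). For Cox6a2 and Cox6a1 the changes were -1.67 and -1.14 (exact permutation p = 0.01, adjusted p = 0.02). Without the arrays with Xist signal the changes of these 3 pairs in Mmp8+/+ mice ranged from -2.41 to -1.38 and in Mmp8-/- mice from -1.97 to -1.01 (exact permutation p = 0.01, 0.02 and 0.03 over 100 permutations). Cox4i2, the lung form of subunit IV, had ratio changes to Cox4i1 of 0.07 and -0.13 (exact permutation p = 0.915), and of -0.22 and -0.16 without the arrays with Xist signal (exact permutation p = 0.44). The ratio of Cox6b2, a testis form, to Cox6b1 changed by -0.30 and -0.39 (exact permutation p = 0.04, adjusted p = 0.048), and by -0.36 and -0.49 without all 3 arrays.

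Muscle fibre markers moved with these isoforms. All 26 of the listed muscle markers were tested, and 20 fell in Mmp8+/+ and 12 in Mmp8-/- mice, with none higher and medians of -1.74 and -1.21. The shares of all features that fell were 12.1% and 14.3%. Mb, the oxygen store of muscle, fell by 2.24 and 1.92, and Myh2, a fast myosin heavy chain, fell by 2.50 and 2.13 (limma adjusted p of 0.00803 or less for these 4 values). The mean log2 signal of the markers was 9.99 to 11.22 in Mmp8+/+ controls and at most 10.44 in Mmp8-/- controls, and 8.31 to 9.62 and 8.38 to 9.60 in the arthritic groups. Mmp8+/+ control mouse 1 had the highest marker mean and the highest Cox7a1, Cox8b and Cox6a2, and mouse 3 of either arthritic group had the highest marker mean of its group and the highest Cox7a1, Cox8b and Cox6a2. The match was not complete. In Mmp8-/- controls mouse 1 had the highest marker mean, but mouse 2 the highest Cox6a2 (8.31 against 8.00). Arthritic Mmp8+/+ mouse 1 had a lower marker mean than mouse 2 (8.31 against 8.96) but a higher Cox7a1 (6.58 against 6.24). Of the 26 markers 9 fell in each genotype without the arrays with Xist signal, where 7.25% and 7.23% of all features fell. Without all 3 arrays the medians of the markers were -1.30 and -0.73. In a whole joint, fewer cells of a type and less RNA per cell cannot be told apart. The part of muscle content in the falls was not tested. Of the brown fat markers, Ucp1, which defines that tissue, read at most 4.96 on any of the 12 arrays, under the limit for testing, and of 5 others tested 2 were lower and 1 higher in Mmp8+/+ and 2 lower in Mmp8-/- mice.

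Among the remaining Cox genes 1 was called. Cox5a, a subunit on the matrix side, rose by 0.87 ± 0.26 (SE) in Mmp8-/- mice (limma adjusted p = 0.0295), from 8.29, 8.97 and 8.93 in controls to 10.28, 9.26 and 9.24. Arthritic Mmp8-/- mouse 1 was far above the others, and without it the call was lost (0.52, limma adjusted p = 0.122). In Mmp8+/+ mice Cox5a differed by 0.27 ± 0.26. Cox4i1 differed by -0.02 and 0.20 in the 2 genotypes and Cox5b by -0.26 and -0.10, and none of these passed. Cox8c, a testis form of subunit VIII, differed by 0.34 and 0.60 (limma adjusted p = 0.274 and 0.0535). Cox7a2l, which is not a catalytic subunit but an assembly factor of supercomplexes, had the smallest change averaged over both genotypes, at -0.07 and 0.06.

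Ndufa4 and Ndufa4l2 went opposite ways in Mmp8+/+ joints. Ndufa4 read 10.76, 10.55 and 10.66 in Mmp8+/+ controls and 10.15, 10.30 and 10.27 in arthritic Mmp8+/+ mice, and fell by 0.42 ± 0.14 (SE, limma adjusted p = 0.0483). Ndufa4l2, a paralog induced by hypoxia, read 8.58, 8.89 and 8.29 in those controls and 9.19, 9.40 and 9.17 in arthritis, and rose by 0.67 ± 0.17, or 1.59-fold (limma adjusted p = 0.0143). Neither pair of groups overlapped. In Mmp8-/- mice Ndufa4 differed by -0.10 ± 0.14 and Ndufa4l2 by 0.01 ± 0.17, the latter with controls of 8.94, 9.08 and 8.84 beside arthritic values of 8.99, 9.12 and 8.79. The ratio of Ndufa4l2 to Ndufa4 changed by 1.09 in Mmp8+/+ and 0.11 in Mmp8-/- mice (exact permutation p = 0.03 for the mean of both, adjusted p = 0.045). In Mmp8-/- mice the log2 ratios overlapped, at -1.54 to -1.33 in controls and -1.64 to -1.16 in arthritis. Without all 3 arrays the changes were 1.03 and 0.17. Both calls in Mmp8+/+ mice were lost without the arrays with Xist signal, with differences of -0.37 for Ndufa4 and 0.66 for Ndufa4l2 (limma adjusted p = 0.192 and 0.0627).

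In complex I, 4 of 33 genes fell and none rose in Mmp8+/+ mice, and 3 fell and 1 rose in Mmp8-/- mice. Of all features 12.1% fell and 7.47% rose in Mmp8+/+ mice, and 14.3% and 8.3% in Mmp8-/- mice. With array means subtracted 2 fell and 2 rose in Mmp8-/- mice, beside 12.2% and 11.9% of all features. With quantile normalisation 0 fell and 4 rose there, beside 10.9% and 10.9%. The median difference was -0.32 in Mmp8+/+ mice and stayed below 0 under both other scalings (-0.27 and -0.20), whereas in Mmp8-/- mice it was -0.05 and turned to 0.02 and 0.11. Ndufv3, an accessory subunit of the NADH-binding module, fell in both genotypes. It read 8.54, 8.74 and 8.59 in Mmp8+/+ controls against 8.10, 7.83 and 8.09 in arthritis, and 8.72, 8.83 and 8.70 in Mmp8-/- controls against 8.20, 8.31 and 8.20. All 6 arthritic mice were below all 6 control mice. Ndufv3 fell by 0.61 ± 0.14 (SE) in Mmp8+/+ (1.53-fold, limma adjusted p = 0.00735) and by 0.51 ± 0.14 in Mmp8-/- mice (1.43-fold, limma adjusted p = 0.0199). The call in Mmp8+/+ mice was kept under all 26 alternatives tried, and that in Mmp8-/- mice was lost under 8.

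Among the iron-sulfur subunits that carry electrons through complex I, Ndufs1 and Ndufs7 changed. Ndufs1, the largest subunit, read 10.47, 10.36 and 10.13 in Mmp8+/+ controls and 9.57, 9.66 and 9.62 in arthritis, a fall of 0.70 ± 0.17 (SE, 1.63-fold, limma adjusted p = 0.00902). In Mmp8-/- mice it differed by -0.43 ± 0.17, from 9.96, 10.18 and 10.10 to 9.31, 9.82 and 9.80 (limma adjusted p = 0.0722), although the groups did not overlap. Ndufs7, next to the site where ubiquinone is reduced, read 10.33, 10.02 and 10.22 in Mmp8+/+ controls and 9.59, 9.57 and 9.29 in arthritis. It fell by 0.70 ± 0.19 in Mmp8+/+ (limma adjusted p = 0.0165) and by 0.59 ± 0.19 in Mmp8-/- mice (limma adjusted p = 0.0362), where controls read 10.30, 9.96 and 10.09 and arthritic mice 9.44, 9.22 and 9.92. Ndufs8, Ndufv1 and Ndufv2, further core subunits, differed by -0.47, -0.41 and -0.32 in Mmp8+/+ and by -0.19, -0.25 and -0.23 in Mmp8-/- mice, and none passed.

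Ndufs4, an accessory subunit whose loss causes a mitochondrial brain disease, read 9.59, 9.19 and 9.34 in Mmp8+/+ controls and 8.49, 8.47 and 8.92 in arthritis, and fell by 0.75 ± 0.23 (SE, limma adjusted p = 0.0359). It also fell in Mmp8-/- mice, by 0.68 ± 0.23 (limma adjusted p = 0.0487). There controls read 9.44, 8.98 and 9.23 and arthritic mice 8.17, 8.31 and 9.12, and arthritic mouse 3 overlapped the controls. The call in Mmp8-/- mice stood near the threshold and was lost under 22 of 26 alternatives. Ndufs1, Ndufs7 and Ndufs4 all lost their calls without the arrays with Xist signal, with differences of -0.63, -0.64 and -0.64 in Mmp8+/+ mice (limma adjusted p = 0.0583, 0.0803 and 0.147).

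The 1 complex I gene that rose was Ndufa1, a small membrane subunit needed for assembly. It read 8.13, 8.09 and 8.46 in Mmp8-/- controls and 9.81, 8.38 and 9.03 in arthritic Mmp8-/- mice, a rise of 0.85 ± 0.27 (SE, 1.80-fold, limma adjusted p = 0.0346). Mouse 1 stood far above the others, and mouse 2 lay within the range of the controls. Without mouse 1 the difference was 0.48 and did not pass (limma adjusted p = 0.143). In Mmp8+/+ mice controls read 8.42, 8.46 and 8.59 and arthritic mice 8.80, 9.23 and 9.07, a difference of 0.55 ± 0.27 that did not pass (limma adjusted p = 0.158). Without the arrays with Xist signal the rise in Mmp8-/- mice did not pass either (0.80, limma adjusted p = 0.127). Ndufb7 had the smallest change averaged over both genotypes, where -0.18 and 0.18 offset each other. Ndufa6 moved less within each genotype, at -0.03 and -0.05.

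**Figure D3:**
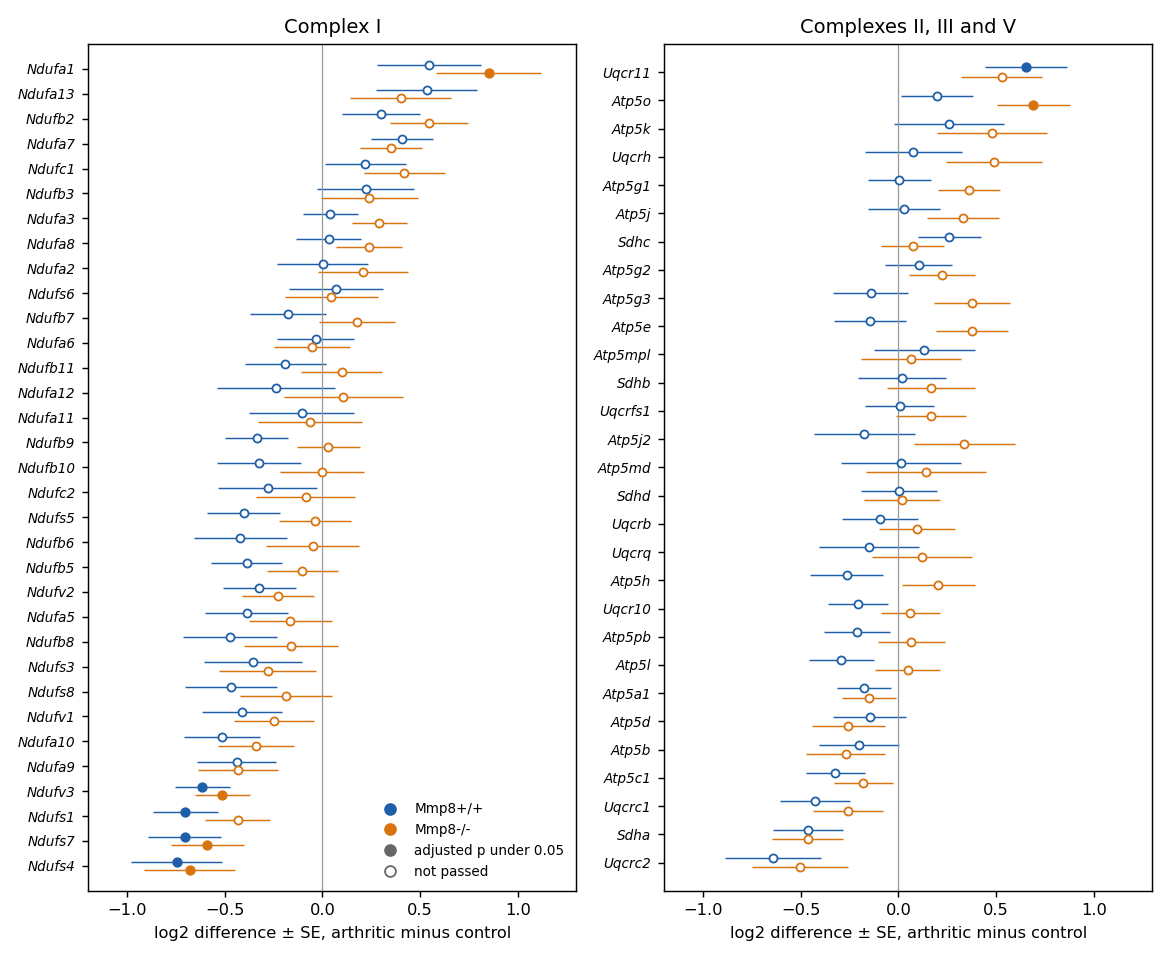
Log2 difference ± SE of arthritic minus control mice for each gene of complex I (left) and of complexes II, III and V (right), ordered by the mean of both genotypes, with Mmp8+/+ in blue and Mmp8-/- in orange; filled points have a limma adjusted p under 0.05. Ndufs4, Ndufs7 and Ndufv3 are filled on the left side of 0 in both genotypes, and Ndufs1 is filled in Mmp8+/+ mice at -0.70, whereas Ndufa1 is filled at 0.85 in Mmp8-/- mice. On the right Uqcr11 is filled at 0.65 in Mmp8+/+ and Atp5o at 0.69 in Mmp8-/- mice.

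Complex II, also a citrate cycle enzyme, had no gene that passed in either genotype, beside 19.6% and 22.6% of all features. Sdha, its catalytic flavoprotein, read 11.18, 10.91 and 11.05 in Mmp8+/+ controls and 10.69, 10.29 and 10.76 in arthritis. The Mmp8-/- controls read 11.03, 10.62 and 10.92 and the arthritic Mmp8-/- mice 10.12, 10.55 and 10.51. In both genotypes the arthritic mice were all below the controls, yet the difference of -0.46 ± 0.18 (SE) in each did not pass (limma adjusted p = 0.0862 and 0.0766). Sdhb, the iron-sulfur subunit, differed by 0.02 and 0.17, and the membrane anchors Sdhc and Sdhd by 0.26 and 0.07 and by 0.00 and 0.02. Complex II medians were 0.01 and 0.05.

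In complex III, Uqcr11, a small subunit, was the 1 gene of 8 that passed, in Mmp8+/+ mice (12.5%, beside 19.6% of all features). It read 7.55, 7.86 and 8.08 in Mmp8+/+ controls and 8.60, 8.45 and 8.40 in arthritis, and rose by 0.65 ± 0.21 (SE, 1.57-fold, limma adjusted p = 0.039). A second feature of the gene gave 0.18 and did not pass, and with the mean of both features the rise was 0.42 (limma adjusted p = 0.17). In Mmp8-/- mice the difference of 0.53 ± 0.21 did not pass (limma adjusted p = 0.0779). The large core proteins Uqcrc1 and Uqcrc2 differed by -0.43 and -0.64 in Mmp8+/+ mice, with no overlap of groups (limma adjusted p = 0.106 and 0.079), and by -0.26 and -0.51 in Mmp8-/- mice. The Rieske iron-sulfur protein Uqcrfs1 differed by 0.01 and 0.17, and Uqcrb, with the smallest average change, by -0.09 and 0.10.

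Complex V had 1 call among its 17 genes in Mmp8-/- mice, 5.88% beside 22.6% of all features, and none in Mmp8+/+ mice, beside 19.6%. Atp5o, which links the catalytic head to the stator, read 8.77, 8.74 and 8.83 in Mmp8-/- controls and 9.94, 9.14 and 9.34 in arthritic Mmp8-/- mice, and rose by 0.69 ± 0.19 (SE, 1.61-fold, limma adjusted p = 0.0175). No arthritic mouse overlapped the controls, and mouse 1 was the highest. Without it the difference was 0.46 and did not pass (limma adjusted p = 0.0622). In Mmp8+/+ mice it read 9.17, 8.98 and 9.22 against 9.26, 9.43 and 9.26, a difference of 0.20 ± 0.19. The rise in Mmp8-/- mice did not pass without the arrays with Xist signal (0.69, limma adjusted p = 0.0727) or without the array labelled Mmp8-/- control 2 (0.67, limma adjusted p = 0.0545). The catalytic alpha and beta subunits, Atp5a1 and Atp5b, and the gamma shaft Atp5c1 differed by -0.18, -0.20 and -0.32 in Mmp8+/+ and by -0.15, -0.27 and -0.18 in Mmp8-/- mice, none past the threshold. The 3 genes for the c subunit of the membrane ring, Atp5g1, Atp5g2 and Atp5g3, gave 0.01, 0.10 and -0.14 in Mmp8+/+ and 0.36, 0.22 and 0.38 in Mmp8-/- mice, and did not pass. Atp5h had the smallest change averaged over both genotypes only because its differences, -0.27 in Mmp8+/+ and 0.20 in Mmp8-/- mice, offset each other. The complex V median was -0.14 in Mmp8+/+ and 0.20 in Mmp8-/- mice, and it kept these signs under both other scalings. It was -0.03 in Mmp8-/- mice without all 3 doubted arrays, with Mmp8-/- control mouse 3 alone in its group.

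The comparison of Mmp8-/- with Mmp8+/+ mice asked whether the missing collagenase altered the respiratory chain genes. By limma 0 of 80 genes passed among arthritic mice, where 0.00573% of all features did. Among control mice and for the interaction of genotype and arthritis 0 passed, each with 0% of all features called. The deleted Mmp8 did not pass either, at -5.54 in arthritic and -4.01 in control mice (limma adjusted p = 0.347 and 0.9995). Its SE was 1.02, with the array labelled Mmp8-/- control 2 at 10.65 in its group, against a median SE of 0.20 for the 80 genes. Mmp8 is therefore no measure of what the fit could detect in these genes. A count of 0 does not show that genotype left them unchanged. At an unadjusted p under 0.05 the counts were 0, 0 and 1 gene, against 2.89%, 3.25% and 3.18% of all features. Methods with another variance estimate, scaling or filter also called 0 genes in these 3 comparisons. The 1 gene was Ndufa4l2, whose interaction of -0.66 ± 0.24 (SE, limma unadjusted p = 0.0167, adjusted p = 0.9999) set the difference of 0.67 in Mmp8+/+ against that of 0.01 in Mmp8-/- mice. In control mice Ndufa4l2 was 0.37 ± 0.17 higher in Mmp8-/- mice and in arthritic mice the same difference was -0.29 ± 0.17. The next lowest p of the interaction belonged to Atp5e and Atp5g3, both complex V, at 0.52 in each, and none passed. Among arthritic mice the lowest p belonged to Ndufa13, an accessory subunit of complex I, at -0.44 ± 0.26 (limma unadjusted p = 0.112, adjusted p = 0.9997).

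Median differences by genotype were 0.02 in arthritic mice and -0.19 in control mice, where 71 of 80 genes were lower in Mmp8-/- mice. Of all 17450 features 8361 were lower there, with a median of 0.01. Control medians were also below 0 for proteasome subunits (-0.14), ribosomal proteins (-0.13) and mitochondrial ribosomal proteins (-0.13), while nuclear regulators lay at 0.05. The 80 signals share arrays and are not independent. Without the array labelled Mmp8-/- control 2 the control median of the 80 genes was -0.09. It was -0.03 when the arrays with Xist signal were left out too. The median interaction of the 80 genes was 0.19 with 67 positive values, and 0.05 without these 3 arrays. Of all 17450 features 8411 were positive, with a median of -0.01. Median interactions were 0.14 for proteasome subunits, 0.06 for ribosomal proteins, 0.12 for mitochondrial ribosomal proteins and -0.09 for nuclear regulators.

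Individual mice shifted the whole set together. The mean log2 signal of the 80 genes was 9.48, 9.17 and 9.51 in Mmp8+/+ controls, 9.25, 9.07 and 9.31 in Mmp8-/- controls, 9.22, 9.13 and 9.30 in arthritic Mmp8+/+ mice and 9.41, 8.94 and 9.34 in arthritic Mmp8-/- mice. Mouse 2 was the lowest of each group. Gene by gene, it had the lowest signal of its group for 65 of the 80 genes (81.2%) in Mmp8+/+ controls, 54 (67.5%) in Mmp8-/- controls, 41 (51.2%) in arthritic Mmp8+/+ and 62 (77.5%) in arthritic Mmp8-/- mice. Over every tested feature the same mice were lowest for 33.6%, 33.9%, 38.8% and 37.9%. The numbers follow the order of deposition and do not link the mice of different groups.

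The same mice were low in other housekeeping sets, chosen after seeing the data. The mean of 40 proteasome subunits was 9.40, 9.06 and 9.32 in Mmp8+/+ controls and 9.27, 8.98 and 9.48 in arthritic Mmp8-/- mice, and mouse 2 was again lowest in all 4 groups. Of the 65 ribosomal protein genes 1 rose and 3 fell in each genotype, and of the proteasome subunits none passed. The shares of all features called were 19.6% in Mmp8+/+ and 22.6% in Mmp8-/- mice. Group means of the respiratory set were 9.39 ± 0.19, 9.21 ± 0.13, 9.22 ± 0.08 and 9.23 ± 0.26 (SD, n = 3) in Mmp8+/+ control, Mmp8-/- control, arthritic Mmp8+/+ and arthritic Mmp8-/- mice. No difference between these means exceeded the pooled SD of 0.176.

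**Figure D4:**
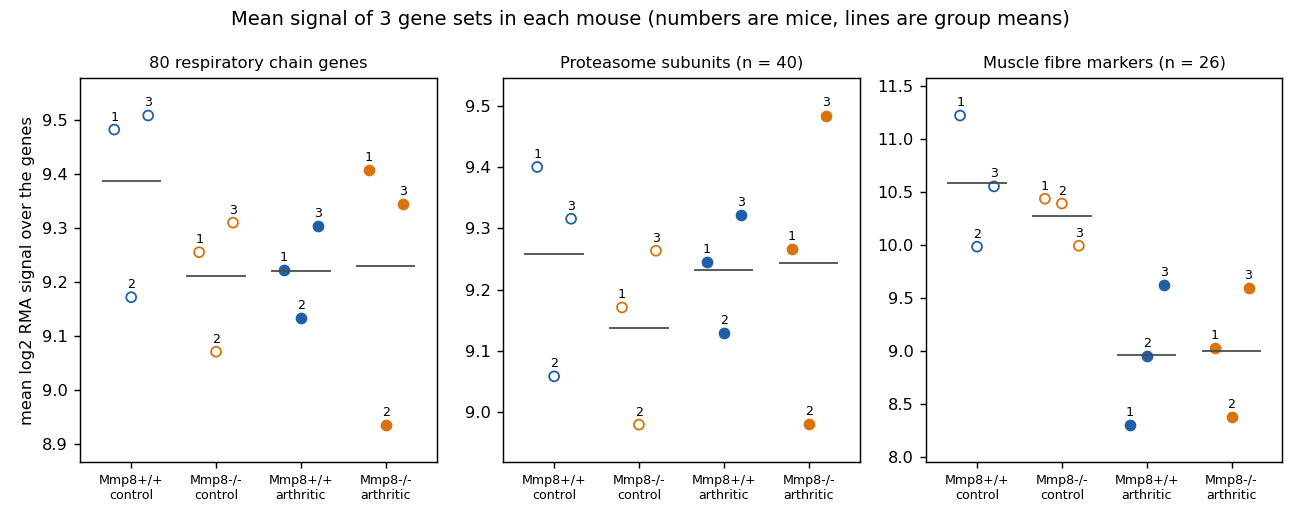
Mean log2 RMA signal per mouse over the 80 respiratory chain genes (left), 40 proteasome subunits (middle) and 26 muscle fibre markers (right), with mice numbered within each group and lines at group means. Mouse 2 is lowest in every group of the first and second panels, and the muscle markers lie at 9.99 or above in controls and at 9.62 or below in arthritic mice.

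Several enzymes that feed the chain fell. Of 17 genes of pyruvate dehydrogenase and the citrate cycle, 4 fell in each genotype and none rose, with medians of -0.37 and -0.42. Pdha1, which admits pyruvate to the cycle, fell by 0.64 ± 0.16 (SE) and 0.53 in Mmp8+/+ and Mmp8-/- mice. Of 15 genes of fatty acid oxidation, 4 fell in each genotype, with medians of -0.31 and -0.24. Acadm, the medium-chain acyl-CoA dehydrogenase, read 10.69, 10.72 and 10.74 in Mmp8+/+ controls against 9.66, 9.42 and 9.78 in arthritis, and fell by 1.10 ± 0.18 and 1.04 (limma adjusted p = 0.000781 and 0.00127). Hadh, which acts later in the same spiral, fell by 0.73 and 1.07. Of all features 12.1% fell in Mmp8+/+ and 14.3% in Mmp8-/- mice. Without the arrays with Xist signal 7.25% and 7.23% of all features fell. None of the 17 citrate cycle genes passed there, and 2 and 3 of the 15 of fatty acid oxidation fell, Acadm (-1.11 and -0.97) and Hadh among them. In Mmp8-/- mice without all 3 doubted arrays the difference of Acadm was -0.89.

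Among 12 energy transfer carriers 5 fell in Mmp8+/+ and 4 in Mmp8-/- mice, and none rose, beside the same 12.1% and 14.3% of all features. Without the arrays with Xist signal 3 and 2 fell, beside 7.25% and 7.23% of all features. Ckmt2, the creatine kinase of muscle mitochondria, had the largest fall, of 2.61 ± 0.43 (SE) and 1.74 (limma adjusted p = 0.000789 and 0.012). Its difference in Mmp8-/- mice was -1.67 without all 3 doubted arrays. Slc25a12, an aspartate-glutamate carrier, fell by 1.04 and 0.98, and Mpc1, a pyruvate carrier of the inner membrane, by 0.85 and 0.58. Of 18 electron carriers and entry points 2 fell in Mmp8+/+ and 1 in Mmp8-/- mice. Gpd2, which brings in electrons from cytosolic NADH, was lower in both (-0.73 and -0.77), and Coq10a, a ubiquinone-binding protein, in Mmp8+/+ mice (-0.89). None of the electron carriers passed without the arrays with Xist signal.

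The counts of genes that build or regulate the chain stand beside 19.6% of all features called in Mmp8+/+ and 22.6% in Mmp8-/- mice. Of 43 assembly factors 1 rose and 2 fell in Mmp8+/+ and 2 rose and 2 fell in Mmp8-/- mice, with medians of -0.03 and -0.04. Ecsit, a factor of complex I assembly and of innate signalling, fell by 0.79 and 0.70, while Coa4, of complex IV assembly, rose by 0.60 and 0.68. No assembly factor passed without the arrays with Xist signal, where 11% and 9.83% of all features were called. Of 77 mitochondrial ribosomal proteins 2 rose and 3 fell in Mmp8+/+ and 1 rose and 2 fell in Mmp8-/- mice. Of 17 nuclear regulators 1 rose and 2 fell in Mmp8+/+ and 1 fell in Mmp8-/- mice. Ppargc1a, a coactivator of mitochondrial genes, read 6.62, 6.13 and 6.20 in Mmp8+/+ controls and 4.74, 5.45 and 5.16 in arthritis, and fell by 1.20 ± 0.25 and 1.42 (limma adjusted p = 0.00366 and 0.00118). The arthritic values of 4.74 and 5.16 lay under the signal limit of 5.3, so the size of the fall is uncertain. The Ppargc1a difference in Mmp8-/- mice was -0.87 without all 3 doubted arrays. Tfam, which packages mitochondrial DNA, fell by 0.93 in Mmp8+/+ mice (limma adjusted p = 0.00731) and differed by -0.50 in Mmp8-/- mice (0.102), and Pprc1, a relative of Ppargc1a, rose by 0.69 in Mmp8+/+ mice. The 2 mitochondrially encoded genes with a single symbol, COX2 and ND3, differed by -0.17 and -0.34 in Mmp8+/+ and by -0.28 and -0.58 in Mmp8-/- mice and did not pass.

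Of 21 genes of glycolysis 6 rose and 4 fell in Mmp8+/+ and 5 rose and 3 fell in Mmp8-/- mice, beside 7.47% of all features that rose and 12.1% that fell in the former and 8.3% and 14.3% in the latter. These counts were 4 and 3, and 3 and 2, without the arrays with Xist signal. There 3.73% of all features rose and 7.25% fell in Mmp8+/+ mice, and 2.6% and 7.23% in Mmp8-/- mice. Pgk1 and Pgam1, of the lower pathway, rose by 0.55 and 0.78 in Mmp8+/+ and by 0.86 and 0.68 in Mmp8-/- mice, whereas Eno3, the muscle enolase, fell by 2.74 and 2.27. Pfkm, the muscle phosphofructokinase, fell by 1.72 and 1.53, and Pfkl, the liver form, rose by 0.74 and 0.45.

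**Figure D5:**
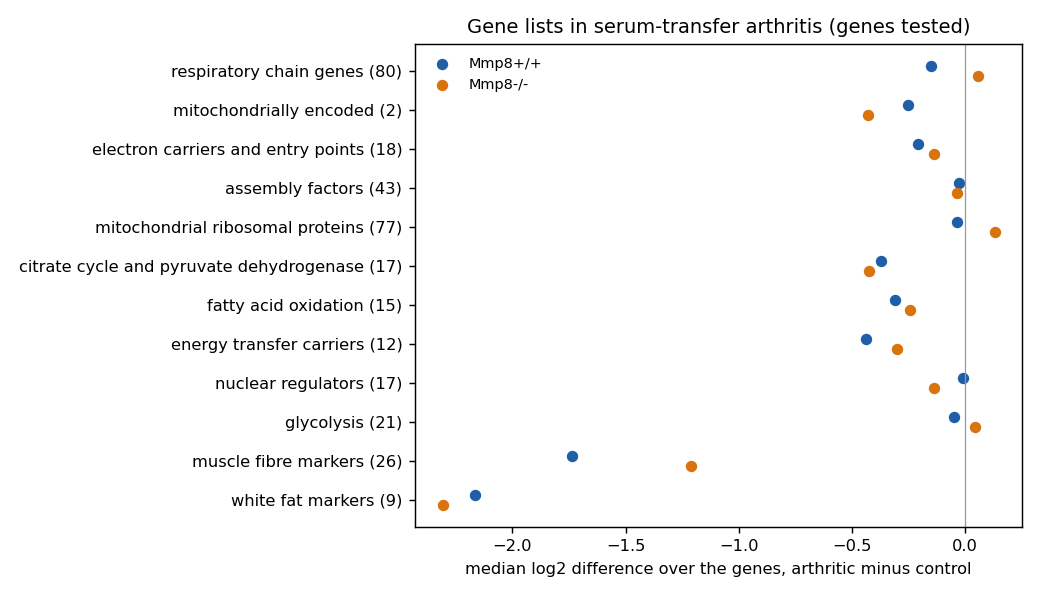
Median log2 difference of arthritic minus control mice over the tested genes of each list, with the number of genes in brackets, Mmp8+/+ in blue and Mmp8-/- in orange. The respiratory chain genes lie at -0.15 and 0.06, far from the muscle fibre markers at -1.74 and -1.21 and the white fat markers at -2.16 and -2.31.

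Markers of other cell types moved as well, and their part in the respiratory chain values was not tested. Their counts stand beside 7.47% of all features that rose and 12.1% that fell in Mmp8+/+ mice, and 8.3% and 14.3% in Mmp8-/- mice. All 9 white fat markers tested fell in both genotypes, with a mean log2 signal of 9.03 to 9.89 in Mmp8+/+ and 9.58 to 9.82 in Mmp8-/- controls and of 7.44 to 7.84 and 7.31 to 7.86 in the arthritic groups. Of 6 osteoblast markers 5 fell in each genotype, and of 8 erythroid markers 5 fell in Mmp8+/+ and 1 in Mmp8-/- mice. Neutrophil markers gave 2 higher and 4 lower of 12 in Mmp8+/+ and 2 higher in Mmp8-/- mice. Macrophage markers gave 2 higher and 1 lower of 10, and 2 and 2, and osteoclast markers 2 higher and 1 lower of 9, and 3 higher. Synovial fibroblast markers gave 3 higher and 1 lower of 8, and 2 and 2, chondrocyte markers 1 higher of 10, and 3 and 2, and keratinocyte markers none of 7, and 2 lower. Without all 3 doubted arrays the median differences were -2.39 and -2.19 for the white fat markers in Mmp8+/+ and Mmp8-/- mice. They were -0.98 and -1.43 for the osteoblast and -1.64 and -0.66 for the erythroid markers.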

How the data were processed

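Total RNA of ankle joints from 12 mice was hybridised to Affymetrix Mouse Gene 1.0 ST arrays, 3 per group. The authors deposited log2 values that were background corrected, quantile normalised and summarised by RMA, with Partek named in the submitters' processing notes. RMA and the study's filter on background could not be repeated from these values. The table held 28853 features, of which 21789 had 1 symbol, 1621 several and 5443 none in the array annotation, and 21698 of the first had a RefSeq gene (GRCm38.p6). All 12 value columns were used. A total of 105 features matched the rule, and the one with the highest mean stood for each of 16 genes with several, up to 6. A further 6 features with several symbols held a name of this kind and were left out. Tested were the 17450 features, of 15977 genes, with 1 symbol and a mean log2 signal of at least 5.3.

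Group means were fitted over all 12 arrays with limma 3.58.1 in R 4.3.3 (lmFit, eBayes, 8 residual degrees of freedom, no covariate), with Benjamini-Hochberg adjustment over all tested features and a threshold of 5%. Adjusted p-values in the text are two-sided limma values unless an exact permutation test is named. Ratios of isoform partners were tested by exact permutation within genotype, on the mean change of both genotypes. Lists of pathway and cell type genes were described by counts and medians. The respiratory chain genes, the lists and the genes named were chosen with earlier results of these data known. Named were, per complex, up to 4 genes with the lowest adjusted p, the smallest mean change, catalytic or core subunits and isoform pairs, the lowest p values of each genotype comparison, and up to 3 genes of each further list. Some genes beyond these were named after their values were seen. The ribosomal and proteasome sets and the permutation test were added after seeing the data, as were the list counts and medians without the doubted arrays. Nothing beyond the labels says how mice were handled in parallel, so replicates are separate mice and no batch could be fitted. The procedure was tested on simulated data.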

Additional observations from a re-analysis of the deposited data

How the results depend on the processing

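Of the 10 genes called in Mmp8+/+ mice and 8 in Mmp8-/- mice, other settings gave fewer or more. At an FDR of 1% there were 4 and 1. Without the arrays with Xist signal there were 3 and 1 (11% and 9.83% of all features), and without the array labelled Mmp8-/- control 2 the count in Mmp8-/- mice was 4 (13.7%). Counts without all 3 arrays are not given, because only Mmp8-/- control mouse 3 was left in its group. With the compared groups alone, array weights and ordinary linear regression the counts in Mmp8-/- mice were 2, 4 and 3. The shares of all features were 15.5%, 16.6% and 15.3%. In Mmp8+/+ mice the counts were 13, 15 and 7, beside 21.4%, 27.7% and 14.2%. Leaving out 1 mouse in turn gave 5 to 13 calls in Mmp8+/+ and 1 to 10 in Mmp8-/- mice. The shares of all features then ranged from 11.8% to 24.1% and from 10.6% to 23.4%. The count in Mmp8+/+ mice was 5 without Mmp8+/+ control mouse 1 (11.8% of all features) and 6 without Mmp8+/+ control mouse 3 (20%). It was also 6 without arthritic Mmp8+/+ mouse 1 (12.2%) or 2 (13.4%). The count in Mmp8-/- mice was 1 without Mmp8-/- control mouse 1 (10.6%) and 4 without Mmp8-/- control mouse 2 (13.7%). Without arthritic Mmp8-/- mouse 1 it was 2 (12.8%). The cause was not tested, beyond the fewer arrays in each of these fits. Under all 26 alternatives Cox7a1, Cox8b and Ndufv3 stayed called in Mmp8+/+ mice. Cox7a1 in Mmp8-/- mice was lost under 1, without all 3 arrays, where it differed by -1.45 with 1 Mmp8-/- control mouse left. Medians moved by less than the spread between mice, from -0.27 to -0.09 in Mmp8+/+ and -0.06 to 0.18 in Mmp8-/- mice when 1 mouse was left out. The genotype and interaction counts stayed at 0 under every alternative. For isoform ratios without all 3 arrays, exact permutation p was 0.025 for Cox7a1, 0.05 for Cox8b and 0.075 for Cox6a2, over 40 permutations. No paired analysis was possible because the replicate numbers follow the order of deposition and link no mice of different groups. Signal over background limits Cox7b2, and also Ppargc1a and Cox8c, which had signals under 5.3 on some arrays. Having 3 mice a group limits every gene.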
